A study of Homo sapiens with 9 samples.

Results

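The genes examined here repair DNA breaks and crosslinks by homologous recombination and the Fanconi anaemia pathway, together with the kinases that signal such damage. They are a list of 36 genes chosen by name. All 36 were found by symbol among the 36018 genes counted, and all 36 passed the filter on low counts. Expression was measured by sequencing mRNA from cells labelled HCT-15, an established human colorectal adenocarcinoma line, and from lines derived from it. The CoCl2-tolerant line had been grown in increasing amounts of cobalt chloride, a hypoxia-mimicking salt, until it tolerated the agent. The low-glucose-tolerant line was made the same way under low glucose, and the control was the untreated line. Each group had 3 libraries, 9 in all, and the labels give the genotype of every group as WT. Neither the final cobalt or glucose concentrations nor the time in culture are stated, and each tolerance is represented by 1 derived line. Tolerance and any other change that arose in that derived line cannot be told apart. Nothing in the labels ties replicate libraries to separate cultures, so the p-values rest on a spread between libraries that may be technical.

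Homologous recombination copies an intact sister chromatid to mend a broken one. Nucleases first trim the broken ends, BRCA2 with PALB2 then readies the exposed strand for exchange with the intact copy, and helicases and nucleases later resolve the joined molecules. In the Fanconi pathway a core complex attaches ubiquitin to FANCD2 and FANCI at crosslinks between the DNA strands, which calls in nucleases and recombination. ATM and ATR sense breaks and stalled forks and act through CHEK2 and CHEK1. Transcripts of many of these genes are known to be made mainly in S and G2 phase, under E2F and DREAM control. Cells lacking these genes are sensitive to platinum drugs and to PARP inhibitors.

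Libraries held 25178615 to 32674687 gene counts, and 3 counts corresponded to 0.0918 to 0.119 CPM, gene counts scaled to library size by trimmed means of M values. The share of mitochondrially encoded transcripts was 4.64 to 6.67% in CoCl2-tolerant, 4.74 to 5.20% in low-glucose-tolerant and 8.08 to 9.80% in control libraries. Replicate 2 of the low-glucose-tolerant line stood apart from replicates 1 and 3 on the second principal component (-19.95 against -0.73 and 1.59). Of 17 intestinal epithelium markers 9 were under 1 CPM in every group, and CDX1 and CDX2, intestinal transcription factors, had no counts in the CoCl2-tolerant and control libraries. The epithelial markers KRT8, KRT18, KRT19 and EPCAM were present, and the 17 summed to 1409 to 1705 CPM in CoCl2-tolerant, 2540.0 to 3434 CPM in low-glucose-tolerant and 1405 to 1441 CPM in control libraries. KRT8, KRT18, KRT19 and EPCAM mark epithelium in general, so these values match an epithelial line and do not establish the colorectal label. The 7 listed fibroblast markers summed to 242 to 273 CPM in CoCl2-tolerant, 25.4 to 35.6 CPM in low-glucose-tolerant and 1832 to 1880.4 CPM in control libraries, and 4 or more of the 7 were under 1 CPM in each group. COL1A1 averaged 250.1 ± 17.2 CPM in CoCl2-tolerant, 21.5 ± 1.85 CPM in low-glucose-tolerant and 1855 ± 27.4 CPM in control libraries (SD, n = 3 each). The 5 endothelial markers summed to at most 2.06 CPM and the 7 leukocyte markers to at most 5.11 CPM in any library. The part of the fibroblast marker change in the results below was not tested.

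In the low-glucose-tolerant line the recombination and Fanconi genes were mostly lower than in control. Of the 36 genes, 27 fell and 4 rose by edgeR's quasi-likelihood test (Benjamini-Hochberg adjusted p under 0.05 over all genes tested), and 5 did not pass. Over all 17902 genes tested 69.2% were called, 34.6% lower and 34.6% higher. Among the members 20 fell at least 2-fold, against 21.0% of all genes, 11 of these at least 4-fold, against 8.67%, and 2 rose at least 2-fold, against 15.7%. The median log2 fold change of the members was -1.13, against -0.01 over all genes tested. BRIP1, BRCA2, BLM, FANCM, FANCB and RAD54L fell most, and RAD51B, FANCF, FANCE and RAD51D rose. In 27 members all low-glucose-tolerant libraries lay below all control libraries and in 5 above them, against 36.9% and 36.4% of all genes tested. There were 30 to 32 calls when any single library was left out. In bulk RNA, fewer cells in S and G2 phase and less RNA of these genes per cell cannot be told apart.

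In the CoCl2-tolerant line 13 of the 36 genes fell, 1 rose and 22 did not pass. The share called, 38.9% of the members, was near the 36.1% called among all genes. By direction, 36.1% of the members were lower and 2.78% higher, against 18.2% and 17.9% of all genes. No member changed as much as 2-fold, against 6.49% of all genes at least 2-fold lower and 4.59% at least 2-fold higher. The median log2 fold change was -0.21, against 0.01 over all genes tested. RAD51C was the gene that rose, and BRIP1, RAD50, BLM, ATM, FANCA, BARD1 and BRCA1 were among those that fell. In 19 members all CoCl2-tolerant libraries lay below all control libraries and in 1 above them, against 28.8% and 28.3% of all genes. The count of 14 calls was 12 without CoCl2-tolerant replicate 1, 9 without replicate 2, 9 without replicate 3, and 8, 9 and 8 without control replicates 1, 2 and 3. Under every one of the 18 alternative settings 7 calls held, those of BRCA1, BARD1, BRIP1, RAD51C, FANCA, BLM and ATM.

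Set against the low-glucose-tolerant line, the CoCl2-tolerant line had higher levels of 25 of the 36 genes and lower levels of 5, against 63.9% of all genes called, 31.9% higher and 32.0% lower. At least 2-fold differences were found in 17 higher and 2 lower members, against 18.2% and 13.2% of all genes. The libraries of the derived lines did not overlap in 23 higher and 5 lower members, against 31.7% and 31.5% of all genes. The median log2 difference was 0.79, against 0.01 over all genes. The 5 that were lower in the CoCl2-tolerant line were RAD51B, RAD51D, FANCE, FANCF and FANCG. Both comparisons with control use the same 3 control libraries, so their values are given side by side below and not counted as independent.

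**Figure D1:**
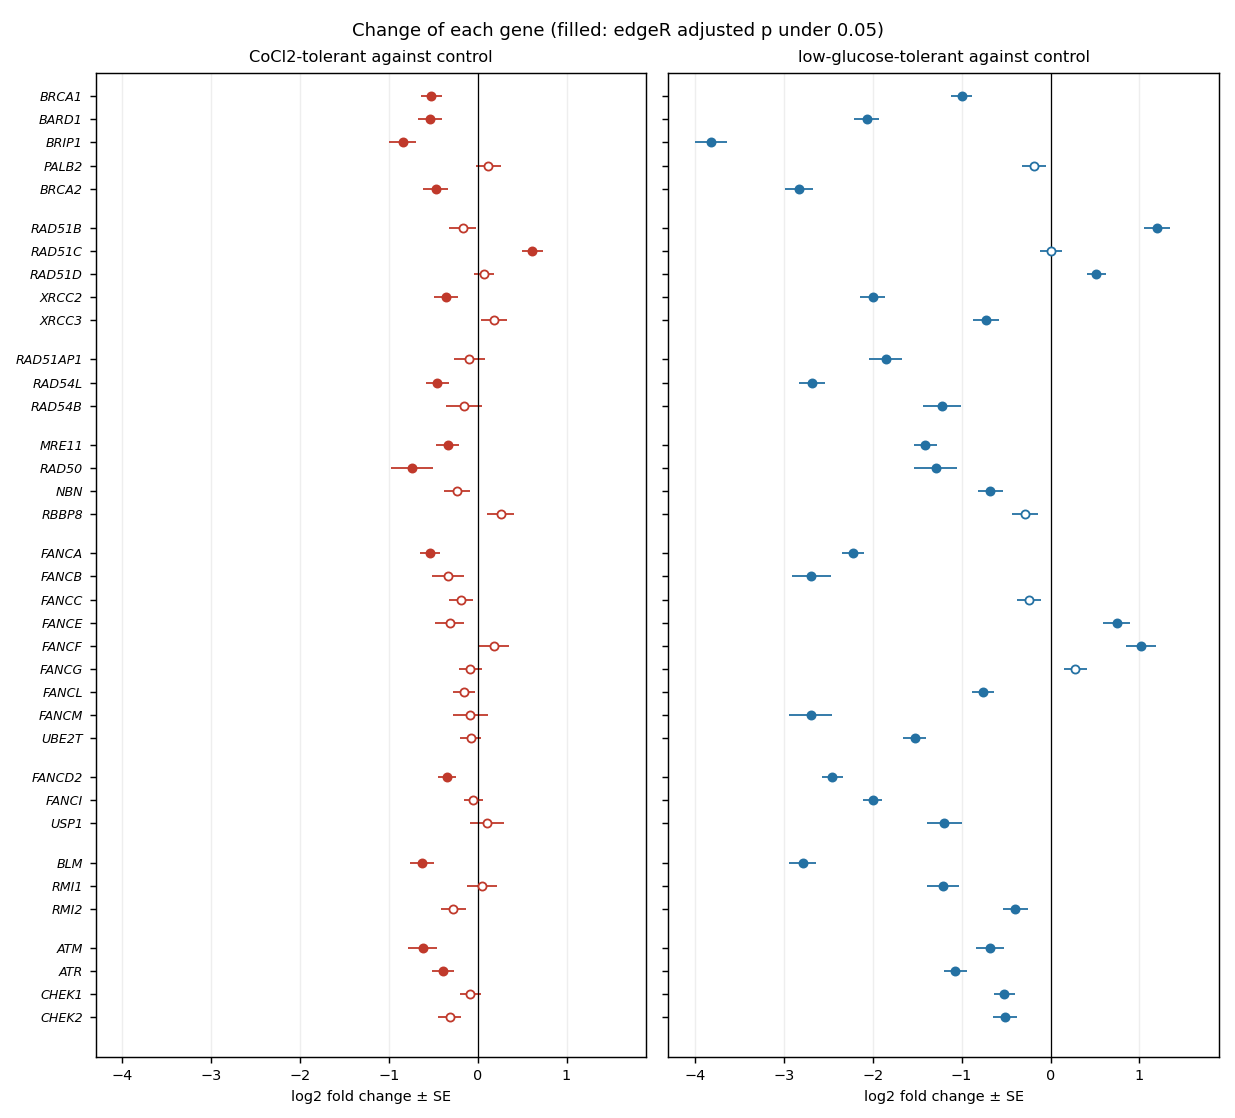
Log2 fold change ± SE of each of the 36 genes, CoCl2-tolerant against control (left) and low-glucose-tolerant against control (right), with genes grouped by role from top to bottom and filled points for edgeR adjusted p under 0.05. Most low-glucose-tolerant points lie left of 0, down to -3.82 for BRIP1, and 4 called genes lie to the right, while the CoCl2-tolerant points stay between -0.84 and 0.62.

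Among the BRCA complexes, 4 of 5 genes fell in the CoCl2-tolerant line, against 18.2% of all genes, and 4 of 5 fell in the low-glucose-tolerant line, against 34.6% of all genes. The CoCl2-tolerant call of BRCA2 was lost in some settings, given with its values. BRIP1, a helicase that binds BRCA1 and is also named FANCJ, had 25.4, 32.9 and 31 CPM in the CoCl2-tolerant libraries, 5.03, 3.49 and 2.82 CPM in the low-glucose-tolerant libraries and 54.6, 53.4 and 52.6 CPM in the control libraries. Low glucose lay far below both other groups, and the CoCl2-tolerant libraries were below control with no overlap. The log2 fold changes were -0.84 ± 0.16 CoCl2-tolerant against control (edgeR adjusted p = 0.000839) and -3.82 ± 0.18 low-glucose-tolerant against control (edgeR adjusted p = 3.87e-10). BRCA2, a mediator of strand exchange on resected DNA, had 14.5, 19.9 and 17.7 CPM in the CoCl2-tolerant libraries, 3.87, 3.32 and 2.93 CPM in the low-glucose-tolerant libraries and 26.3, 22.3 and 23.9 CPM in the control libraries. Its groups did not overlap, with low glucose lowest and control highest. BRCA2 changed by -0.47 ± 0.14 CoCl2-tolerant against control (edgeR adjusted p = 0.0163) and -2.84 ± 0.16 low-glucose-tolerant against control (edgeR adjusted p = 1.57e-09). The smaller, CoCl2-tolerant change missed the threshold without CoCl2-tolerant replicate 1 (edgeR adjusted p = 0.0628), without control replicate 1 (0.0830) and after removal of a trend on length and GC (0.0780), with a range of 0.00584 to 0.0830 over all alternatives.

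BRCA1, the scaffold and ubiquitin ligase of end resection, had 32.7, 38.9 and 33.8 CPM in the CoCl2-tolerant libraries, 27.7, 25.5 and 22.4 CPM in the low-glucose-tolerant libraries and 52.6, 48 and 50.8 CPM in the control libraries. The order of the groups was the same, without overlap, and the changes were -0.52 ± 0.12 CoCl2-tolerant against control (edgeR adjusted p = 0.00329) and -1.001 ± 0.12 low-glucose-tolerant against control (edgeR adjusted p = 3.31e-06). Its obligate ligase partner BARD1 fell as well. BARD1 had 16, 20.7 and 21.9 CPM in CoCl2-tolerant, 6.63, 7.61 and 5.97 CPM in low-glucose-tolerant and 29.1, 28.5 and 27.2 CPM in control libraries, with log2 fold changes of -0.53 ± 0.13 CoCl2-tolerant against control and -2.07 ± 0.14 low-glucose-tolerant against control. PALB2, the bridge between BRCA1 and BRCA2, did not pass in any comparison of the main fit. Between the derived lines (edgeR adjusted p = 0.0647) it passed without CoCl2-tolerant replicate 1 (0.0270) or low-glucose-tolerant replicate 1 (0.0175). That comparison also passed with at least 5 CPM in 3 libraries (0.0221), with library totals (0.0337) and after removal of a trend on length and GC (0.0224). It was at 24.5 to 31.6 CPM in CoCl2-tolerant, 18.7 to 26.5 CPM in low-glucose-tolerant and 25.2 to 26.7 CPM in control libraries, and the groups overlapped. PALB2 lies on chromosome 16, where the protein-coding genes had a median log2 fold change of 0.67 low-glucose-tolerant against control.

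In GRCh38 (GENCODE 29), BRIP1 spans chr17:61681266-61863521, BRCA2 chr13:32315474-32400266, BRCA1 chr17:43044295-43170245, FANCD2 chr3:10026414-10101930 and FANCF chr11:22622890-22625841. Start-site sequences, chosen after the values were seen, are shown for the 2 genes that fell most in the low-glucose-tolerant line, for FANCD2, the gene with the largest fall among those with an E2F-type match in this window, and for FANCF, the gene with the largest rise whose RefSeq start lies near its GENCODE start. Each is 300 bases from RefSeq (GRCh38.p14), 250 before and 50 after the annotated start, on the strand of the gene, with capitals marking matches to the motifs named below.
BRIP1, chr17:61863479-61863778, minus strand: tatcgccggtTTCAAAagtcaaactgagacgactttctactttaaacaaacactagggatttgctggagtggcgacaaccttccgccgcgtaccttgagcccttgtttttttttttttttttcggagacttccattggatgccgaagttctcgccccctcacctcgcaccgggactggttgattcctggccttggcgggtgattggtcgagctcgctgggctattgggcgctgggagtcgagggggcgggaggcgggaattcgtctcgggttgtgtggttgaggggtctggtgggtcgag
BRCA2, chr13:32315258-32315557, plus strand: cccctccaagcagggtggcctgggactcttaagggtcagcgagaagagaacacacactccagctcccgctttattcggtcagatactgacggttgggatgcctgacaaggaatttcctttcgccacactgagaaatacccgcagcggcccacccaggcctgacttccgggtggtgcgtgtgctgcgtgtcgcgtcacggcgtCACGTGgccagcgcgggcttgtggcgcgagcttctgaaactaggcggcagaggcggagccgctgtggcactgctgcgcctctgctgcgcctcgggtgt
FANCD2, chr3:10026187-10026486, plus strand: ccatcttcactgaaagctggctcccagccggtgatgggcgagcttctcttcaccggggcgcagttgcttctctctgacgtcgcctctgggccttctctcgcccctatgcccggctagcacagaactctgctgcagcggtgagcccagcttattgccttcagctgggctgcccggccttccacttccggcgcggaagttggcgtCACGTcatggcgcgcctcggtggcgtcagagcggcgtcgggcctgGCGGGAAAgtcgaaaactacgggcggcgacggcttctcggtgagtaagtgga
FANCF, chr11:22625774-22626073, minus strand: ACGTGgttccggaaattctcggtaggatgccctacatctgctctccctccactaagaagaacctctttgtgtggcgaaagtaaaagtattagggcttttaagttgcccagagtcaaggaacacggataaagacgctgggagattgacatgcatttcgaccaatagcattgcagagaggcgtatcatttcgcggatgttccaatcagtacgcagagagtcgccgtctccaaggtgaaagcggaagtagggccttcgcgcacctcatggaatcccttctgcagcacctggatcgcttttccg
The motifs were E2F-type TTTGGCGC, TTTCGCGC or TTTCCCGC, the cell cycle homology region (CHR) letters TTTGAA, and the hypoxia response core ACGTG, each on both strands. In BRIP1 the capitals mark a CHR-type match on the opposite strand, far from the start. In BRCA2 they mark hypoxia cores on both strands, which overlap as CACGTG. In FANCD2 they mark a hypoxia core and, across the start site, an E2F-type match, both on the opposite strand. In FANCF they mark a hypoxia core at the far end of the window.

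Windows were matched for 32 of the 36 genes (not for RAD54B, NBN, FANCI or RMI2). An E2F-type match was found in 3 of the 32 (XRCC2, FANCC and FANCD2), or 9.38%, against 2.79% of all 27305 windows and 4.31% of those of genes tested here. A CHR-type match was found in 4 of 32 (BRIP1, FANCC, UBE2T and ATM), or 12.5%, against 15.4% of all windows and 9.75% of those of genes tested, one above and the other below the members' share. A hypoxia core was found in 9 of 32, or 28.1%, against 21.6% of all windows and 26.3% of those of genes tested. Of the 23 genes with a window that fell in the low-glucose-tolerant line, 2 held an E2F-type, 3 a CHR-type and 6 a hypoxia core match. The shares over genes tested were 4.31%, 9.75% and 26.3%. Of the 5 with a window that were not called there, 1 held an E2F-type, 1 a CHR-type and 1 a hypoxia core match. Of the 4 that rose, 2 held a hypoxia core and none either of the other motifs. These are matches of letters in one annotated window per gene and not sites of binding. The window of FANCC, which held matches of each motif, starts from a RefSeq site 109087 bases from the GENCODE start of the gene. That distance was 135067 bases for RBBP8, 3762 for RAD51B, 1764 for RAD51D and 1093 for CHEK1.

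RAD51B, RAD51C, RAD51D, XRCC2 and XRCC3, related proteins whose complexes assist strand exchange, did not move together. RAD51B had 3.25, 4.03 and 4.48 CPM in the CoCl2-tolerant libraries, 11.1, 9.94 and 9.41 CPM in the low-glucose-tolerant libraries and 4.48, 4.59 and 4.16 CPM in the control libraries. Low glucose lay above both other groups, which overlapped, and RAD51B (chr14:67819779-68730218, GRCh38) was the largest rise among the 36 genes. Its changes were 1.20 ± 0.14 low-glucose-tolerant against control (edgeR adjusted p = 4.32e-06) and -1.37 ± 0.15 CoCl2-tolerant against low-glucose-tolerant (edgeR adjusted p = 1.94e-06). RAD51C, which belongs to both of these complexes, had 52.6, 49.9 and 52.8 CPM in the CoCl2-tolerant libraries, 37, 27.9 and 36.8 CPM in the low-glucose-tolerant libraries and 34.5, 31.5 and 35.4 CPM in the control libraries. The CoCl2-tolerant libraries stood above the other 6, and the low-glucose-tolerant and control libraries overlapped. The changes of RAD51C were 0.62 ± 0.12 CoCl2-tolerant against control (edgeR adjusted p = 0.00149) and 0.01 ± 0.12 low-glucose-tolerant against control (edgeR adjusted p = 0.972), and 0.61 ± 0.12 CoCl2-tolerant against low-glucose-tolerant (edgeR adjusted p = 0.000565). RAD51D was at 23 to 24.8 CPM in CoCl2-tolerant, 30.3 to 35.3 CPM in low-glucose-tolerant and 21.3 to 24.1 CPM in control libraries, and rose with low glucose (log2 fold change 0.52 ± 0.11).

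XRCC2, the partner of RAD51D, went the other way. XRCC2 had 13.8, 16.4 and 16.4 CPM in the CoCl2-tolerant libraries, 5.88, 4.69 and 4.31 CPM in the low-glucose-tolerant libraries and 20.3, 20.6 and 18.8 CPM in the control libraries. The groups did not overlap. XRCC2 changed by -2.003 ± 0.14 low-glucose-tolerant against control (edgeR adjusted p = 1.80e-08), while the protein-coding genes of its chromosome 7 had a median log2 fold change of 0.74 there. Its CoCl2-tolerant change was -0.36 ± 0.13 (edgeR adjusted p = 0.0458) and missed the threshold without any single library of either group, with adjusted p of 0.145, 0.0666 and 0.0809 without CoCl2-tolerant and 0.131, 0.141 and 0.0818 without control replicates 1, 2 and 3. It also missed it with the replicate block (0.0758), library totals (0.0611) and no filter (0.0761). XRCC3, the partner of RAD51C, was at 15.8 to 21.4 CPM in CoCl2-tolerant, 8.05 to 11 CPM in low-glucose-tolerant and 15.1 to 16.6 CPM in control libraries and fell with low glucose (log2 fold change -0.73 ± 0.15). Since 76.7% of its exon bases are shared with KLC1 on the opposite strand and the strand setting of the counting is not known, the level of XRCC3 is uncertain.

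RAD54L, RAD54B and RAD51AP1, which act at the strand exchange step, fell in the low-glucose-tolerant line, against 34.6% of all genes. RAD54L, a motor protein that drives strand exchange, had 14.9, 13 and 14 CPM in the CoCl2-tolerant libraries, 2.55, 3.49 and 2.89 CPM in the low-glucose-tolerant libraries and 19.98, 17.6 and 19.9 CPM in the control libraries. Low glucose was lowest and control highest, without overlap. RAD54L changed by -0.45 ± 0.13 CoCl2-tolerant against control (edgeR adjusted p = 0.0134) and -2.68 ± 0.14 low-glucose-tolerant against control (edgeR adjusted p = 1.18e-09), and its CoCl2-tolerant call was lost without CoCl2-tolerant replicate 2 (edgeR adjusted p = 0.0565) or control replicates 1 (0.0619) or 3 (0.0613). In RAD54L 25.1% of the exon bases are shared with LRRC41 on the opposite strand. RAD51AP1, which stimulates strand pairing, was at 21.7 to 28.2 CPM in CoCl2-tolerant, 5.21 to 10.1 CPM in low-glucose-tolerant and 26.1 to 28.3 CPM in control libraries (log2 fold change -1.86 ± 0.19 low-glucose-tolerant against control). RAD54B, a relative of RAD54L, was at 4.98 to 5.67 CPM in CoCl2-tolerant, 1.64 to 3.6 CPM in low-glucose-tolerant and 5.43 to 6.08 CPM in control libraries (log2 fold change -1.22 ± 0.22 low-glucose-tolerant against control), with 59.1% of its exon bases shared with FSBP on the same strand.

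End sensing and resection genes fell in part. MRE11, the nuclease that starts to trim a broken end, had 25.6, 32 and 31.1 CPM in the CoCl2-tolerant libraries, 16.3, 12.4 and 13.6 CPM in the low-glucose-tolerant libraries and 37.9, 36 and 38.4 CPM in the control libraries. The low-glucose-tolerant libraries were below all others and the CoCl2-tolerant libraries below control. The changes of MRE11 were -0.34 ± 0.13 CoCl2-tolerant against control (edgeR adjusted p = 0.0496) and -1.41 ± 0.13 low-glucose-tolerant against control (edgeR adjusted p = 3.07e-07), and the CoCl2-tolerant one was lost when any of its own or the control libraries was left out (range over the alternatives 0.0110 to 0.172). The CoCl2-tolerant call of MRE11 was also lost with the replicate block (0.0808), library totals (0.0613), no filter (0.0715) and removal of a trend on length and GC (0.148), where the log2 fold change was -0.18. RAD50, the tether that holds MRE11 at the ends, had 6.66, 4.03 and 3.96 CPM in the CoCl2-tolerant libraries, 2.99, 4.63 and 2.28 CPM in the low-glucose-tolerant libraries and 7.6, 8.82 and 7.88 CPM in the control libraries. Both derived lines were below control without overlap, and they overlapped each other. RAD50 changed by -0.74 ± 0.23 CoCl2-tolerant against control (edgeR adjusted p = 0.0234) and -1.29 ± 0.24 low-glucose-tolerant against control (edgeR adjusted p = 0.000240). Its level is uncertain because 79.7% of its exon sequence also belongs to a second annotated gene on the same strand, and the CoCl2-tolerant call ended without CoCl2-tolerant replicates 2 (edgeR adjusted p = 0.0876) or 3 (0.102) or control replicates 2 (0.0827) or 3 (0.0522) and after removal of a trend on length and GC (0.0702). The protein-coding genes of its chromosome 5 had a median of -0.45 low-glucose-tolerant against control. RAD50 was 0.55 ± 0.25 higher (log2) in the CoCl2-tolerant than in the low-glucose-tolerant line (edgeR adjusted p = 0.0632). That comparison passed without CoCl2-tolerant replicates 2 (0.0445) or 3 (0.0419) or low-glucose-tolerant replicate 2 (0.00583). It also passed with at least 5 CPM in 3 libraries (0.0413), library totals (0.0410), no filter (0.0149) and the replicate block (0.0426).

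NBN, through which the MRE11 complex recruits ATM to broken ends, was at 38.7 to 48.2 CPM in CoCl2-tolerant, 26.9 to 40.7 CPM in low-glucose-tolerant and 51 to 53.5 CPM in control libraries, and fell in the low-glucose-tolerant line (log2 fold change -0.68 ± 0.14). RBBP8, which encodes the resection factor CtIP, did not pass against control in either line. Its CoCl2-tolerant comparison passed without CoCl2-tolerant replicate 1 (edgeR adjusted p = 0.0470), and its low-glucose-tolerant comparison passed without low-glucose-tolerant replicate 1 (0.0205), with at least 5 CPM in 3 libraries (0.0354), with library totals (0.0473) and after removal of a trend on length and GC (0.0332). RBBP8 was at 35.5 to 50.04 CPM in CoCl2-tolerant, 25.6 to 36.5 CPM in low-glucose-tolerant and 35 to 38 CPM in control libraries, and was higher in the CoCl2-tolerant than in the low-glucose-tolerant line (log2 difference 0.54 ± 0.15, edgeR adjusted p = 0.00557), with 1 CoCl2-tolerant library inside the low-glucose-tolerant range.

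**Figure D2:**
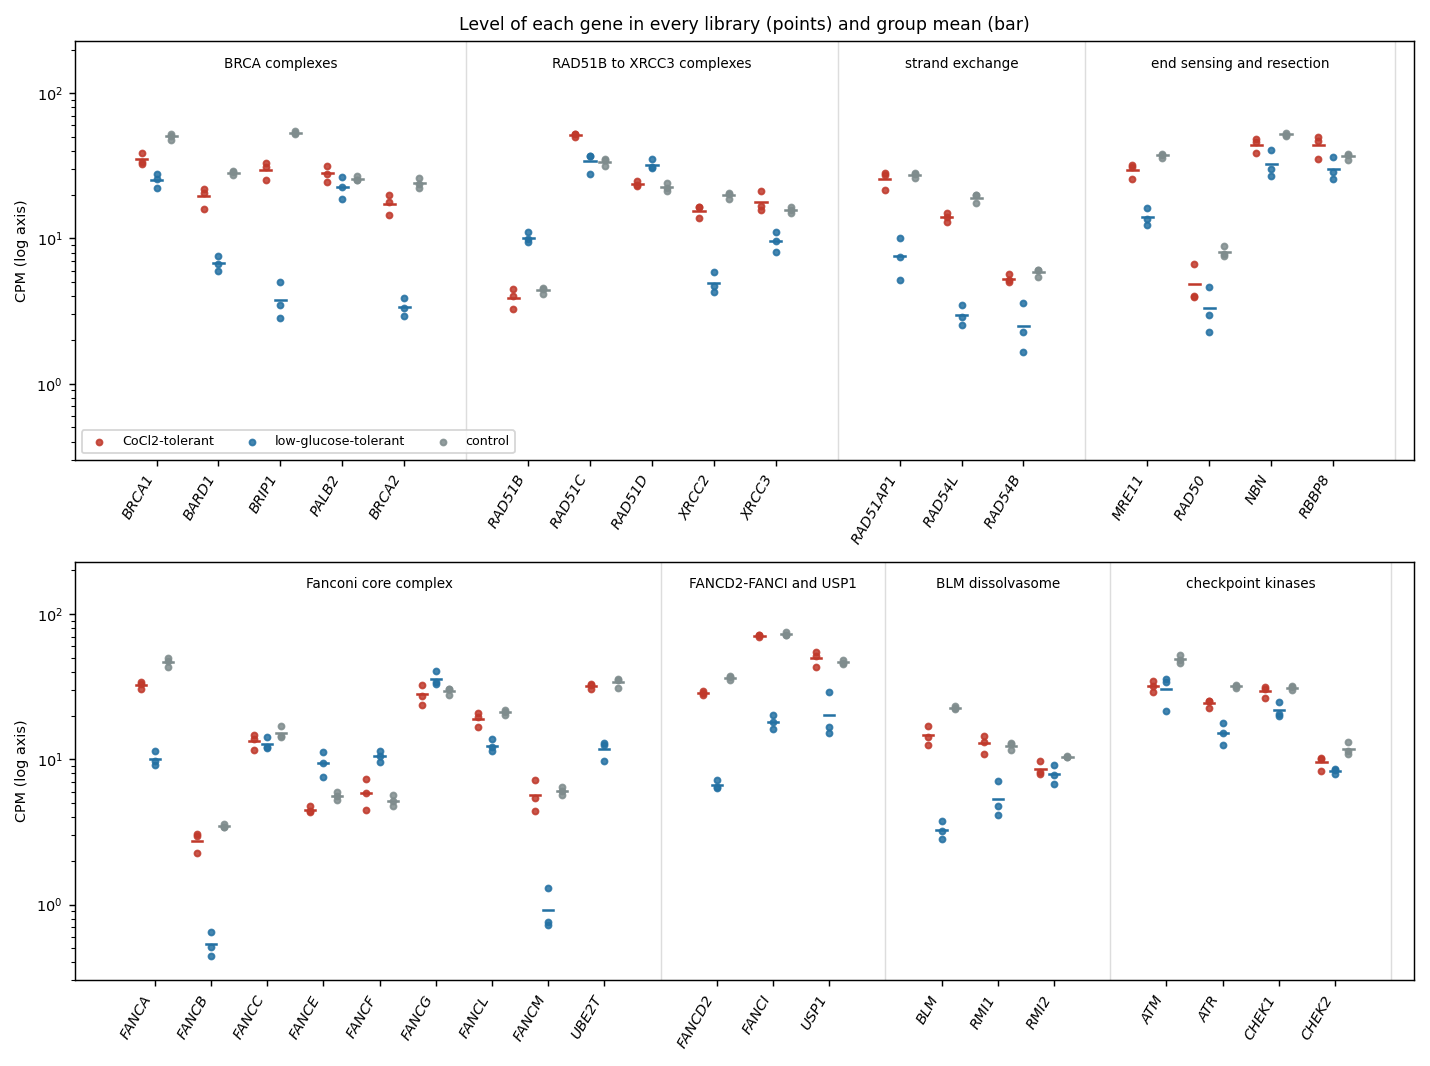
CPM (log axis) of each of the 36 genes in every library, with genes grouped by role and, within each gene, CoCl2-tolerant libraries left, low-glucose-tolerant in the middle and control right; points are libraries and bars are group means. The low-glucose-tolerant points of BRIP1 (2.82 to 5.03 CPM), BRCA2, BLM and FANCD2 lie far below both other groups, while RAD51B, FANCE and FANCF lie above them.

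Of the 9 genes of the Fanconi core complex, 1 fell in the CoCl2-tolerant line, or 11.1% called against 36.1% of all genes. In the low-glucose-tolerant line 5 of the 9 fell and 2 rose, a called share of 77.8% near the 69.2% of all genes. FANCA, the gene most often mutated in Fanconi anaemia, had 34.3, 33 and 30.3 CPM in the CoCl2-tolerant libraries, 9.14, 11.4 and 9.66 CPM in the low-glucose-tolerant libraries and 43.5, 47.8 and 50.1 CPM in the control libraries. The groups did not overlap, with low glucose lowest and control highest. FANCA changed by -0.53 ± 0.12 CoCl2-tolerant against control (edgeR adjusted p = 0.00280) and -2.22 ± 0.12 low-glucose-tolerant against control (edgeR adjusted p = 1.70e-09), beside a chromosome 16 median of 0.67 low-glucose-tolerant against control, and 23.6% of its exon bases are shared with ZNF276 on the opposite strand. FANCM, a DNA translocase that recruits the core complex to chromatin, had 4.37, 7.21 and 5.44 CPM in the CoCl2-tolerant libraries, 1.29, 0.754 and 0.724 CPM in the low-glucose-tolerant libraries and 6.4, 6.06 and 5.65 CPM in the control libraries. The low-glucose-tolerant libraries were below all others, and the CoCl2-tolerant and control libraries overlapped. FANCM changed by -2.70 ± 0.24 low-glucose-tolerant against control (edgeR adjusted p = 2.02e-07). FANCB, an X-linked subunit of the catalytic module, had 2.25, 2.94 and 3.04 CPM in the CoCl2-tolerant, 0.442, 0.514 and 0.651 CPM in the low-glucose-tolerant and 3.41, 3.41 and 3.59 CPM in the control libraries, a low-glucose-tolerant change of -2.69 ± 0.22 on the log2 scale.

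Both enzymes of the ligase fell in the low-glucose-tolerant line. FANCL, the ubiquitin ligase subunit, was at 16.6 to 20.7 CPM in CoCl2-tolerant, 11.3 to 13.9 CPM in low-glucose-tolerant and 20.04 to 21.9 CPM in control libraries (log2 fold change -0.76 ± 0.13 low-glucose-tolerant against control). UBE2T, the conjugating enzyme that works with FANCL, had 32.7, 33.1 and 30.3 CPM in CoCl2-tolerant, 12.9, 9.7 and 12.6 CPM in low-glucose-tolerant and 34.9, 31.1 and 35.6 CPM in control libraries. Low glucose lay below the other 6 libraries, which overlapped, with a log2 fold change of -1.53 ± 0.13 for UBE2T low-glucose-tolerant against control.

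FANCF and FANCE, adaptor subunits of the core, were the genes that rose. FANCF had 4.45, 7.28 and 5.9 CPM in the CoCl2-tolerant libraries, 11.4, 9.59 and 10.5 CPM in the low-glucose-tolerant libraries and 4.74, 5.14 and 5.68 CPM in the control libraries. FANCE, which contacts FANCD2, had 4.37, 4.76 and 4.34 CPM in the CoCl2-tolerant libraries, 9.45, 7.57 and 11.2 CPM in the low-glucose-tolerant libraries and 5.62, 5.2 and 5.97 CPM in the control libraries. In both genes the low-glucose-tolerant libraries were above all others. The changes were 1.02 ± 0.17 low-glucose-tolerant against control (edgeR adjusted p = 8.02e-05) for FANCF and 0.75 ± 0.15 (edgeR adjusted p = 0.000530) for FANCE. FANCG and FANCC did not pass against control in either line. FANCG was at 23.8 to 32.5 CPM in CoCl2-tolerant, 33.2 to 40.4 CPM in low-glucose-tolerant and 27.7 to 30.7 CPM in control libraries, and FANCC at 11.6 to 14.7 CPM in CoCl2-tolerant, 11.9 to 14.3 CPM in low-glucose-tolerant and 14.3 to 16.9 CPM in control libraries. Low glucose lay above control without overlap in FANCG (edgeR adjusted p = 0.0700). That comparison passed without low-glucose-tolerant replicate 2 (edgeR adjusted p = 0.0344) or CoCl2-tolerant replicate 1 (0.0410). For FANCC (edgeR adjusted p = 0.114) it passed, as lower, without low-glucose-tolerant replicate 2 (0.0416) and with at least 5 CPM in 3 libraries (0.0325). FANCC also passed there with library totals (0.0369) and after removal of a trend on length and GC (0.0169).

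The substrates of the core fell together in the low-glucose-tolerant line. FANCD2 had 28.7, 27.8 and 29.6 CPM in the CoCl2-tolerant libraries, 7.2, 6.41 and 6.3 CPM in the low-glucose-tolerant libraries and 37.2, 36.7 and 35.3 CPM in the control libraries. The 3 groups did not overlap and each was narrow. FANCD2 changed by -0.34 ± 0.10 CoCl2-tolerant against control (edgeR adjusted p = 0.0192) and -2.45 ± 0.11 low-glucose-tolerant against control (edgeR adjusted p = 3.07e-10). The CoCl2-tolerant call was lost without CoCl2-tolerant replicates 2 (0.0694) or 3 (0.0532) or control replicates 1 (0.0835), 2 (0.0725) or 3 (0.0564), as edgeR adjusted p. With no filter that call was lost too (edgeR adjusted p = 0.0684). FANCD2 has pseudogene copies, and how the counting treated reads that match both is not known. FANCI, the binding partner of FANCD2, had 69.1, 71.3 and 71.3 CPM in the CoCl2-tolerant libraries, 20.3, 16.2 and 18.1 CPM in the low-glucose-tolerant libraries and 75.1, 71.4 and 72.3 CPM in the control libraries. The low-glucose-tolerant libraries were lowest, and the CoCl2-tolerant and control libraries nearly touched. FANCI changed by -0.05 ± 0.11 CoCl2-tolerant against control (edgeR adjusted p = 0.754) and -2.003 ± 0.11 low-glucose-tolerant against control (edgeR adjusted p = 1.63e-09), beside a chromosome 15 median of -0.45 low-glucose-tolerant against control.

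USP1, the protease that removes ubiquitin from FANCD2, varied widely between low-glucose-tolerant libraries. USP1 had 43.3, 55.1 and 51.7 CPM in the CoCl2-tolerant libraries, 29, 15.1 and 16.8 CPM in the low-glucose-tolerant libraries and 48, 45.4 and 46.1 CPM in the control libraries. Replicate 1 lay well above replicates 2 and 3 but below every CoCl2-tolerant and control library. The low-glucose-tolerant change was -1.19 ± 0.19 on the log2 scale (edgeR adjusted p = 7.33e-05).

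In the dissolvasome, which untangles joined molecules without crossover, all 3 genes fell in the low-glucose-tolerant line, against 34.6% of all genes. In the CoCl2-tolerant line BLM alone was called, as lower, or 33.3% of the 3, near the 36.1% called among all genes. BLM, the helicase lost in Bloom syndrome, had 12.6, 14.2 and 17 CPM in the CoCl2-tolerant libraries, 3.74, 3.22 and 2.82 CPM in the low-glucose-tolerant libraries and 23.2, 22.2 and 22.4 CPM in the control libraries. The groups did not overlap, with control highest. BLM (chr15:90717327-90816165, GRCh38) changed by -0.63 ± 0.13 CoCl2-tolerant against control (edgeR adjusted p = 0.00237) and -2.79 ± 0.15 low-glucose-tolerant against control (edgeR adjusted p = 1.18e-09), beside the chromosome 15 median of -0.45 low-glucose-tolerant against control. RMI1, a scaffold of the complex, was at 10.9 to 14.5 CPM in CoCl2-tolerant, 4.16 to 7.07 CPM in low-glucose-tolerant and 11.5 to 13 CPM in control libraries (log2 fold change -1.21 ± 0.18 low-glucose-tolerant against control). RMI2, its small partner, was at 7.95 to 9.79 CPM in CoCl2-tolerant, 6.72 to 9.14 CPM in low-glucose-tolerant and 10.3 to 10.6 CPM in control libraries. Its low-glucose-tolerant change of -0.40 ± 0.14 (edgeR adjusted p = 0.0204) was lost without control replicates 1 (0.0539) or 3 (0.0619) or low-glucose-tolerant replicate 2 (0.0681). With no filter that call was lost too (edgeR adjusted p = 0.0509).

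The 4 checkpoint kinases fell in the low-glucose-tolerant line, against 34.6% of all genes. ATM and ATR fell in the CoCl2-tolerant line, 50% of the 4, against 18.2% of all genes. ATM, the kinase of double-strand breaks, had 28.9, 34.7 and 31.7 CPM in the CoCl2-tolerant libraries, 34, 35.9 and 21.6 CPM in the low-glucose-tolerant libraries and 48.3, 52.2 and 46 CPM in the control libraries. Both derived lines were below control without overlap, and they overlapped each other. ATM changed by -0.62 ± 0.16 CoCl2-tolerant against control (edgeR adjusted p = 0.00831) and -0.68 ± 0.16 low-glucose-tolerant against control (edgeR adjusted p = 0.00171), and 0.06 ± 0.16 CoCl2-tolerant against low-glucose-tolerant (edgeR adjusted p = 0.759). The low-glucose-tolerant change of ATM was -0.17 after removal of a trend on length and GC (edgeR adjusted p = 0.0829). ATR, the kinase of stalled forks, had 25, 25.3 and 22.6 CPM in the CoCl2-tolerant libraries, 15.2, 17.7 and 12.6 CPM in the low-glucose-tolerant libraries and 30.9, 32.5 and 32.2 CPM in the control libraries. The groups did not overlap, with low glucose lowest. The changes of ATR were -0.39 ± 0.13 CoCl2-tolerant against control (edgeR adjusted p = 0.0261) and -1.07 ± 0.13 low-glucose-tolerant against control (edgeR adjusted p = 4.12e-06), and the CoCl2-tolerant call was lost without CoCl2-tolerant replicate 3 (0.115) or control replicates 1 (0.0608), 2 (0.0877) or 3 (0.0833). It was also lost after removal of a trend on length and GC (edgeR adjusted p = 0.113), where the log2 fold change of ATR was -0.18.

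CHEK1, the effector kinase of ATR, had 26.2, 30.3 and 31.5 CPM in the CoCl2-tolerant libraries, 24.7, 19.8 and 20.5 CPM in the low-glucose-tolerant libraries and 32, 29.9 and 31.5 CPM in the control libraries. The low-glucose-tolerant libraries were below the other 6, and the CoCl2-tolerant and control libraries overlapped. CHEK1 changed by -0.08 ± 0.12 CoCl2-tolerant against control (edgeR adjusted p = 0.612) and -0.52 ± 0.12 low-glucose-tolerant against control (edgeR adjusted p = 0.00141). CHEK2, the effector of ATM, was at 8.26 to 10.2 CPM in CoCl2-tolerant, 7.88 to 8.6 CPM in low-glucose-tolerant and 10.9 to 13.1 CPM in control libraries, and fell in the low-glucose-tolerant line (log2 fold change -0.51 ± 0.13, edgeR adjusted p = 0.00304). CHEK2 has pseudogene copies, so its count may be affected.

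Ratios of the counts of partners within a library were computed for 13 pairs chosen after the values were seen, and the ratios are descriptions. Some differed between groups and others overlapped. The ratio of BARD1 to BRCA1 was 0.488 to 0.646 in CoCl2-tolerant, 0.239 to 0.298 in low-glucose-tolerant and 0.536 to 0.594 in control libraries. The ratio of BRCA2 to PALB2 was 0.592 to 0.634 in CoCl2-tolerant, 0.146 to 0.157 in low-glucose-tolerant and 0.876 to 0.983 in control libraries, so both derived lines lay below control. In contrast, RAD51B to XRCC2 stood at 0.236 to 0.274 in CoCl2-tolerant, 1.88 to 2.18 in low-glucose-tolerant and 0.221 to 0.223 in control libraries. FANCI to FANCD2 was nearer between groups, at 2.41 to 2.56 in CoCl2-tolerant, 2.52 to 2.87 in low-glucose-tolerant and 1.95 to 2.05 in control libraries, with control below both. NBN to MRE11 was 1.44 to 1.55 in CoCl2-tolerant, 1.98 to 2.5 in low-glucose-tolerant and 1.35 to 1.49 in control libraries. RMI2 to BLM was 0.478 to 0.777 in CoCl2-tolerant, 2.09 to 2.77 in low-glucose-tolerant and 0.445 to 0.472 in control libraries.

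In 2 of the pairs all groups overlapped. RAD50 to MRE11 was 0.126 to 0.260 in CoCl2-tolerant, 0.168 to 0.374 in low-glucose-tolerant and 0.201 to 0.245 in control libraries, and CHEK2 to ATM was 0.238 to 0.347 in CoCl2-tolerant, 0.219 to 0.389 in low-glucose-tolerant and 0.208 to 0.286 in control libraries.

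**Figure D3:**
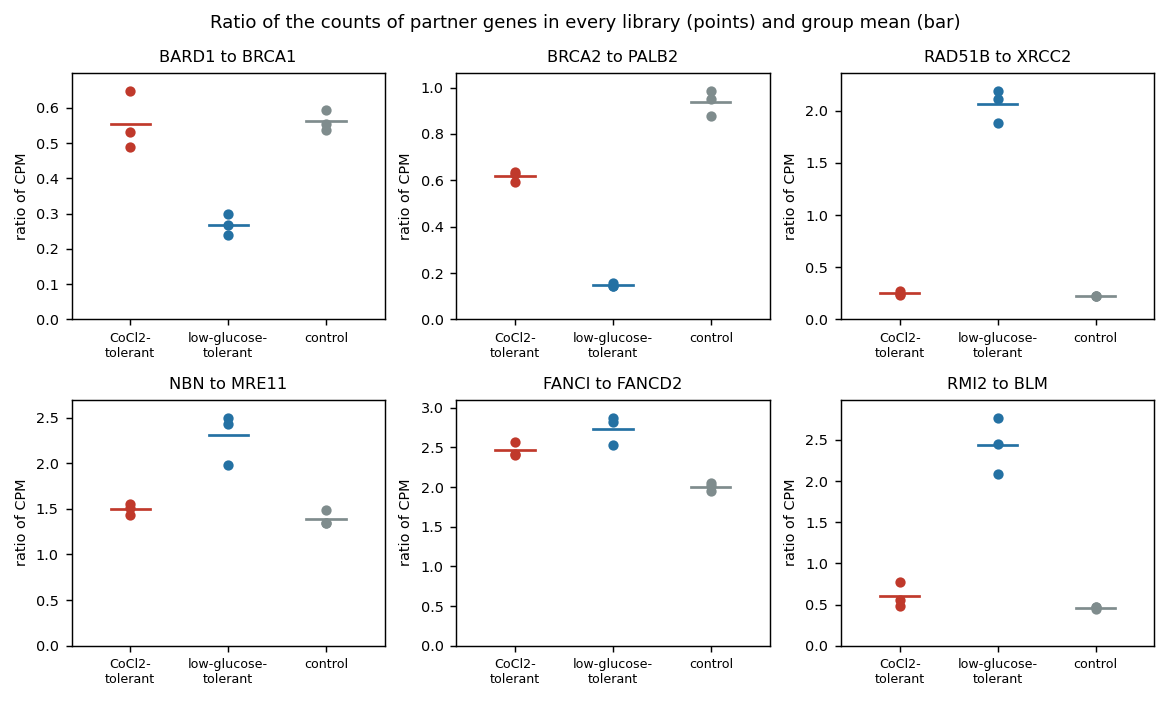
Ratio of the CPM of 6 pairs of partner genes in every library, for CoCl2-tolerant (left), low-glucose-tolerant (middle) and control (right) libraries; points are libraries and bars are group means. In the low-glucose-tolerant libraries BARD1 to BRCA1 (0.239 to 0.298) and BRCA2 to PALB2 (0.146 to 0.157) were low, and RAD51B to XRCC2 and RMI2 to BLM were high.

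Levels can be compared between genes per length, as CPM per kilobase of annotated exon (GENCODE 29), which counts the exons of all isoforms. On that scale UBE2T was highest in control at 20.5, followed by USP1 at 10.9, RAD51AP1 at 10.7 and FANCI at 9.39, and FANCM (0.713) and RAD51B (0.590) were lowest. In the CoCl2-tolerant line UBE2T was also highest, at 19.4. In the low-glucose-tolerant line FANCG led at 9.93, ahead of UBE2T at 7.1, and FANCM was lowest at 0.109.

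Spread within a group differed between the groups. The median coefficient of variation over the 36 genes was 11.7% in CoCl2-tolerant, 15.4% in low-glucose-tolerant and 4.82% in control libraries. Low-glucose-tolerant replicate 1 was the highest of its group in 24 of 36 genes, and CoCl2-tolerant replicate 1 the lowest of its group in 21 of 36. Summed over the 36 genes, the level was 788 to 864 CPM in CoCl2-tolerant, 458 to 540.3 CPM in low-glucose-tolerant and 950.4 to 969.8 CPM in control libraries, without overlap.

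Other genes of these pathways were counted from lists given by name. Of 32 other recombination genes tested, 17 fell and 4 rose in the low-glucose-tolerant line (median log2 fold change -0.71) and 5 fell and 1 rose in the CoCl2-tolerant line (median -0.06). The shares called were 65.6% with low glucose, against 69.2% of all genes, and 18.8% with CoCl2, against 36.1% of all genes. By direction, 53.1% were lower and 12.5% higher with low glucose, against 34.6% each way of all genes. With CoCl2 15.6% were lower and 3.1% higher, against 18.2% and 17.9% of all genes. The largest low-glucose-tolerant falls were in ZGRF1, a helicase (-3.69 ± 0.16), EXO1, the resection exonuclease (-2.70 ± 0.17), and DNA2, a nuclease-helicase (-2.49 ± 0.14). Of 16 other Fanconi-associated genes 6 fell and 6 rose with low glucose, 37.5% each way, near the 34.6% each way of all genes. There UHRF1, a sensor of crosslinks and of hemimethylated DNA, averaged 16.4 ± 1.98 CPM in low-glucose-tolerant and 102 ± 1.18 CPM in control libraries, and ERCC1, a partner in the crosslink-cutting nuclease, 92.8 ± 15.9 CPM in low-glucose-tolerant and 50.9 ± 1.84 CPM in control libraries (SD, n = 3 each). Of 26 checkpoint and break-signalling mediators, 16 fell and 3 rose with low glucose (median -0.53), 61.5% and 11.5% of them, against 34.6% each way of all genes. CLSPN, the adaptor through which ATR activates CHEK1, averaged 29.6 ± 2.62 CPM in CoCl2-tolerant, 4.38 ± 0.854 CPM in low-glucose-tolerant and 43.2 ± 1.37 CPM in control libraries, and fell in both derived lines.

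End-joining is the alternative route for breaks. Of 14 such genes, 6 fell and 4 rose in the low-glucose-tolerant line and 5 fell and 1 rose in the CoCl2-tolerant line, with median log2 fold changes of -0.14 in the low-glucose-tolerant and -0.16 in the CoCl2-tolerant line. The shares called were 71.4% with low glucose, near the 69.2% of all genes, and 42.9% with CoCl2, near the 36.1% of all genes. By direction, 35.7% were lower and 7.14% higher with CoCl2, against 18.2% and 17.9% of all genes. With low glucose 42.9% were lower and 28.6% higher, against 34.6% each way of all genes. POLQ, the polymerase of microhomology-mediated joining, averaged 19.7 ± 2.48 CPM in CoCl2-tolerant, 2.08 ± 0.113 CPM in low-glucose-tolerant and 26 ± 2.31 CPM in control libraries, a low-glucose-tolerant change of -3.64 ± 0.15. POLL, a gap-filling polymerase, rose there by 1.53 ± 0.11 on the log2 scale, and the end-joining ligase LIG4 changed by -1.17 ± 0.14.

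Cell cycle genes fell in the same line. In the low-glucose-tolerant line all 18 listed G2 and mitosis genes fell (median log2 fold change -2.55), and 23 of 27 E2F and S-phase genes fell and 2 rose (median -1.27). In the CoCl2-tolerant line 5 of the 18 G2 and mitosis genes fell (median -0.22), and 9 of the 27 E2F and S-phase genes fell and 2 rose (median -0.04). Called shares there were 27.8% of the G2 and mitosis genes and 40.7% of the E2F and S-phase genes, against 36.1% of all genes. By direction, 27.8% and 33.3% were lower, against 18.2%. With low glucose 100% and 85.2% were lower, against 34.6% of all genes. The G2 and mitosis genes summed to 1835 to 1969 CPM in CoCl2-tolerant, 365 to 396 CPM in low-glucose-tolerant and 2339 to 2463 CPM in control libraries. MKI67, a marker of dividing cells, averaged 221 ± 24.6 CPM in CoCl2-tolerant, 24 ± 6.17 CPM in low-glucose-tolerant and 433 ± 23.5 CPM in control libraries. E2F1, an activator of S-phase genes, averaged 22.4 ± 2.41 CPM in CoCl2-tolerant, 7.14 ± 1.09 CPM in low-glucose-tolerant and 24.5 ± 0.833 CPM in control libraries. PCNA, the sliding clamp of replication, averaged 219 ± 21.6 CPM in CoCl2-tolerant, 127 ± 20.7 CPM in low-glucose-tolerant and 166 ± 3.31 CPM in control libraries. Thus PCNA rose in the CoCl2-tolerant line (log2 fold change 0.40 ± 0.12) and fell in the low-glucose-tolerant line (-0.39 ± 0.13). The part of the cell cycle in the repair gene changes was not tested.

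**Figure D4:**
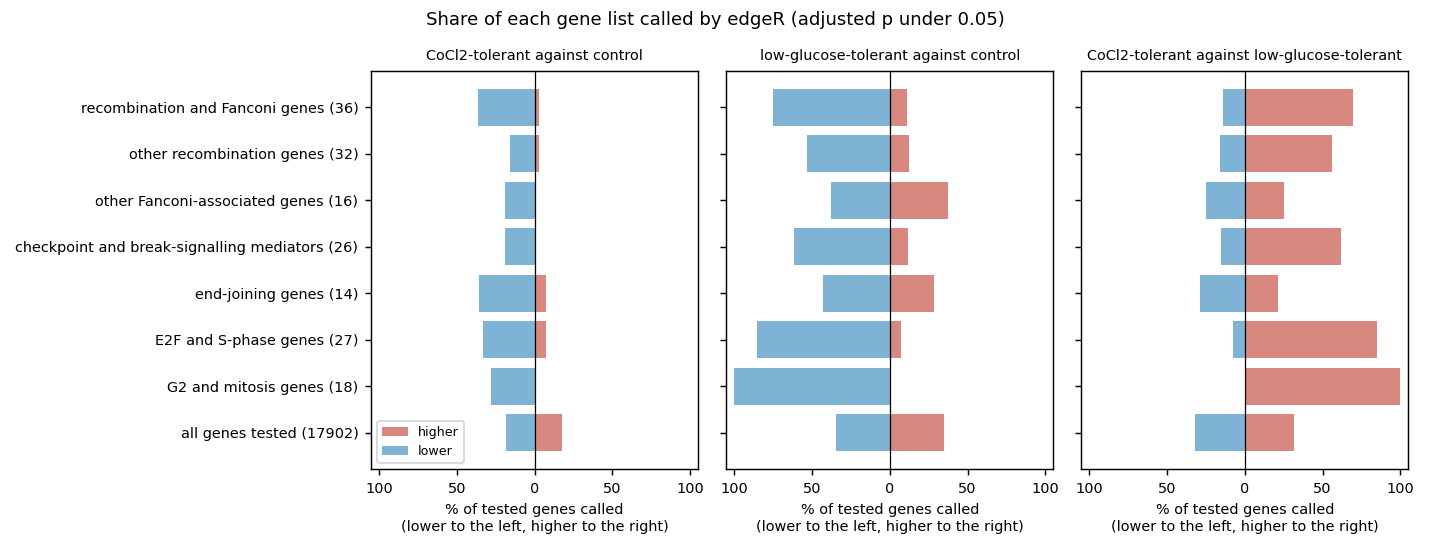
Percent of the tested genes of each list called higher (right) or lower (left) by edgeR in the 3 comparisons, with the number of genes tested in parentheses and all genes tested as the bottom bar. With low glucose, 27 of 36 recombination and Fanconi genes fell beside 18 of 18 G2 and mitosis genes, against 34.6% of all genes.

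Transcript length and chromosome moved with some of these changes. Among protein-coding genes with at least 10000 annotated exon bases the median log2 fold change was -0.26 CoCl2-tolerant against control and -0.29 low-glucose-tolerant against control, and among those under 3000 bases it was 0.24 CoCl2-tolerant against control and 0.54 low-glucose-tolerant against control. The 5 members with at least 10000 exon bases, BRCA2, RAD51D, FANCC, ATM and ATR, had medians of -0.39 CoCl2-tolerant against control and -0.68 low-glucose-tolerant against control. Below 10000 bases the low-glucose-tolerant medians of the members decreased with length, as those of all genes did, but lay lower. They were -0.76 for 5 members under 3000 bases and -1.19 for 11 of 3000 to 6000 bases, where all genes were at 0.21. For 15 members of 6000 to 10000 bases the median was -1.41, where all genes were at -0.05. The -0.68 of the longest members did not continue that order. With a trend on transcript length and GC content removed from each library, 28 members fell and 4 rose in the low-glucose-tolerant line (median -1.02), and ATM there no longer passed. In the CoCl2-tolerant line 14 fell and 2 rose after the same removal. There the calls of BRCA2 (log2 fold change -0.21), MRE11, RAD50 and ATR were lost, and RAD51D, FANCB, FANCE, FANCL, RMI2 and CHEK2 passed. The share of all genes called after this removal is not reported here, so these counts are not set against it. By chromosome, protein-coding genes had medians of 0.74 on chromosome 7 and 0.67 on chromosome 16, and of -0.45 on chromosome 5 and -0.45 on chromosome 15, low-glucose-tolerant against control. In the CoCl2-tolerant line the medians of the 18 chromosomes that carry a member lay between -0.07 and 0.10. The part of either in the changes of single genes was not tested.

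**Figure D5:**
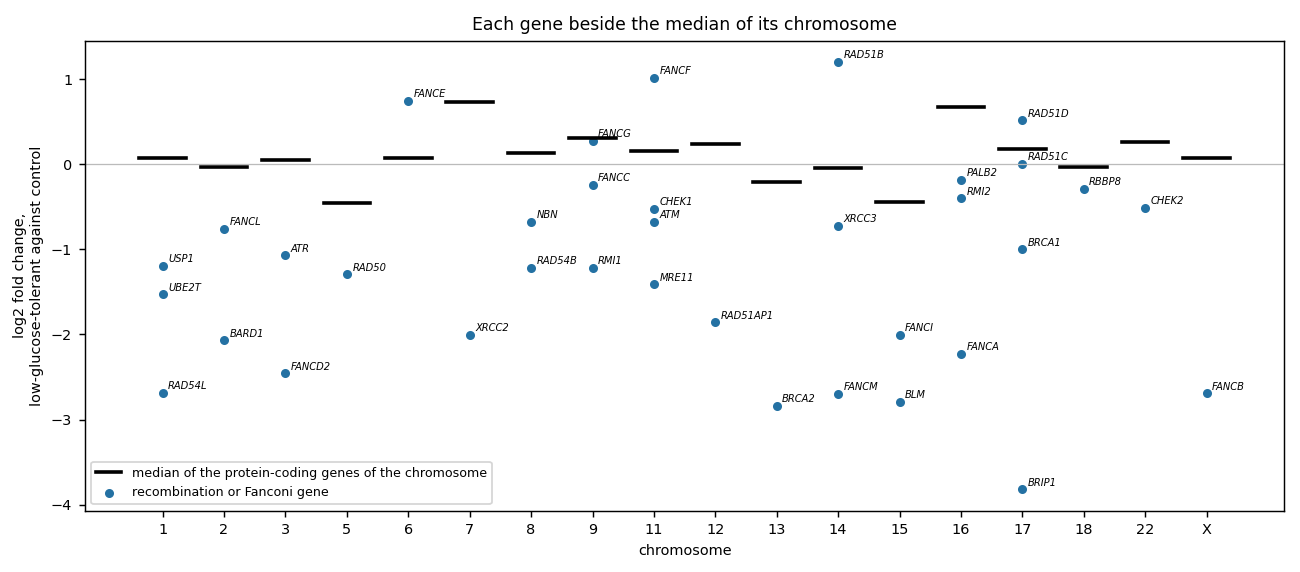
Log2 fold change low-glucose-tolerant against control of each of the 36 genes (points) by chromosome, beside the median of the protein-coding genes of that chromosome with a mean log2 CPM over 2 (bars). XRCC2 lies at -2.003 on chromosome 7, where the median was 0.74, and BLM at -2.79 on chromosome 15, where it was -0.45.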

How the data were processed

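The deposited files hold raw read counts per gene, checked as whole numbers with differing totals. The submitters' processing notes name featureCounts, DESeq2 and the build GRCh38. Which aligner, gene annotation and strand setting were used was not given in the sources used here. Identifiers were matched to symbols, and GENCODE 29 (GRCh38) gave positions, exon overlap, lengths and GC content. Members and lists were chosen with earlier results of these data known.

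Counts of all 9 libraries were fitted with edgeR 4.0.16 (R 4.3.3, limma 3.58.1): filterByExpr by group, trimmed mean of M values scaling, 1 mean per group, quasi-likelihood F test, and Benjamini-Hochberg adjustment within each of 3 comparisons. The procedure was tested on simulated counts. Alternatives were DESeq2 1.42.0, its size factors, library totals, no filter, at least 5 CPM in 3 libraries, only the compared groups, a replicate block, no mitochondrial genes, a length and GC trend removed by splines, and each library left out. Replicates differed by more than counting error (chi-squared per degree of freedom 2.45 to 80.5). Tables were made in Python 3.11.15 (pandas 2.3.3, numpy 2.4.6) and plots with matplotlib 3.10.9.

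Genes given for every library were the 6 largest called changes per comparison reaching 1 CPM in 1 of the groups, plus 8 fixed genes and others where the text turns on them. From other lists a few of the up to 3 largest called changes per comparison are given, with MKI67, PCNA and E2F1; some genes of the rule are not reported here. Chromosome and length medians used protein-coding genes with a mean log2 CPM over 2. A level given for 3 counts covers counting error only; SEs and SDs include the spread between libraries.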

Additional observations from a re-analysis of the deposited data

How the results depend on the processing

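Counts of members called in the low-glucose-tolerant line against control were 30 to 32 with a library left out and 30 to 33 under the other 9 settings, beside 31. CoCl2-tolerant against low-glucose-tolerant they were 28 to 31 and 29 to 31, beside 30. CoCl2-tolerant against control they were 8 to 15 with a library left out and 11 to 17 otherwise, beside 14, with fewer libraries in the test where one was left out. No called member changed direction under any of the 18 settings. Calls that held under all of them numbered 29 of 31 low-glucose-tolerant against control (not RMI2 and ATM), 28 of 30 between the derived lines (not NBN and FANCG) and 7 of 14 CoCl2-tolerant against control (not BRCA2, XRCC2, RAD54L, MRE11, RAD50, FANCD2 and ATR). Library totals in place of trimmed means moved the median of all genes by -0.11 (log2) low-glucose-tolerant against control, where 29 members fell and 4 rose. With the replicate number as a block, there were 31 calls low-glucose-tolerant against control, 31 between the derived lines and 12 CoCl2-tolerant against control. The shares of all genes called under these settings are not reported here. Correlations of residuals were -0.260 to 0.124 for libraries sharing a number, against -0.242 to 0.205 for others. Residuals were taken from a mean of 3 libraries, so these values constrain each other and cannot show whether the numbers pair libraries.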
